A study of Mus musculus with 2 samples.

Results

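The chemokine and chemokine receptor genes are described here in liver RNA of mice on a high-fat diet (HFD), 1 group injected with AAV-GFP and the other with AAV-*Wee1-AS*. The members are the gene symbols that begin with Ccl, Cxcl, Cx3cl, Xcl, Ccr, Cxcr, Cx3cr, Xcr or Ackr followed by a digit. The rule uses names alone and gave 63 genes on 147 transcripts, out of 45777 genes on 129299 transcripts in the whole table. They are 38 ligands, 23 receptors (4 of them atypical) and 2 pseudogenes. A minimum of 10 counts in either library was reached by 40 of the 63 genes (25 ligands and 15 receptors), while 11 had fewer counts and 12 were at 0 in both.

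C57BL/6 mice (C57BL/6 N in the methods) were put on the HFD at 7 weeks of age and kept on it for 18 weeks. At week 13, 5 weeks before the end, they received AAV-GFP, which makes green fluorescent protein, or AAV-*Wee1-AS*, which makes the long noncoding RNA transcribed antisense to the *Wee1* gene. The vector is an adeno-associated virus of serotype AAV9 with the CMV promoter, which is not specific to hepatocytes, injected retro-orbitally, and the transcript *Wee1-AS* itself was not analysed here. Each group is 1 library of whole-liver RNA selected for poly-A tails, although the submitted design mentions 4 livers. The sex of the mice and any pooling are not given in the sources used here. With 1 library per group there is no replicate check, the spread between mice is unknown, and no p-value is given.

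The libraries held 55466182 counts (AAV-GFP) and 48079335 counts (AAV-*Wee1-AS*). The counts are the authors' estimates per transcript of RefSeq on mouse genome build mm10, summed here per gene and scaled between the libraries by the TMM method. Each log2 ratio is AAV-*Wee1-AS* over AAV-GFP, with a 95% exact interval that covers counting error only. A prior count of 2 is added in each library before the log, which pulls ratios of low counts towards 0, and the limits of 0.5-fold and 2-fold were applied to these values. The intervals, and any fold or ratio given beside a log2 ratio, come from the scaled counts without the prior. Where a pair of values stands together, the AAV-GFP library comes first. Hepatocyte markers fitted the liver label in both libraries, with albumin (*Alb*) at 44939 and 65042 CPM (counts scaled to equal library size).

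Chemokines are small secreted proteins that guide the movement of leukocytes along a gradient. Their receptors are G protein-coupled receptors of the Gi class, and the atypical receptors bind chemokines without that signal and remove or carry them. In a fatty liver, Kupffer cells, stellate cells, sinusoidal endothelial cells and injured hepatocytes release chemokines, and monocytes, neutrophils and lymphocytes follow them into the tissue.

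Most members with enough counts were lower in the AAV-*Wee1-AS* library. Of the 40, 27 had a log2 ratio below 0, and the median was -0.68 (95% order-statistic interval -1.09 to -0.11) beside -0.02 for all 15857 genes that passed the same minimum. Genes are not replicates. The intervals of medians, here and below, treat members as independent and do not cover the spread between mice. Of the 40, 14 were below 0.5-fold, beside 8.71% of all genes, and 5 were above 2-fold, beside 22.2% of all genes. Counting intervals lay wholly below a ratio of 1 for 19 members and wholly above it for 9, where the shares over all genes were 38.0% and 39.1%. Of the 40, 8 passed the minimum through the AAV-GFP library alone and 3 through the AAV-*Wee1-AS* library alone, so the difference of these 11 is in part set by the minimum, and the counts above include them. The study shows inflammation genes of the same libraries, so the values here give no independent support.

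The median of the ligands was below that of the receptors, with overlapping intervals, and above it when 50 counts in either library were asked for (-0.81 against -0.99). For the 25 ligands the median log2 ratio was -0.87 (interval -1.45 to -0.23), with 10 below 0.5-fold and 2 above 2-fold. For the 15 receptors it was -0.16 (interval -1.09 to 0.69), with 4 below 0.5-fold and 3 above 2-fold. Over all genes, 8.71% were below 0.5-fold and 22.2% above 2-fold, so the receptors above 2-fold stood near that share. Both medians were the same when genes with a library at 0 were set to their log2 ratio against a floor of 3 counts.

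The summed level of the family was mostly that of *Cxcl12*, which made up 60.8% (AAV-GFP) and 70.8% (AAV-*Wee1-AS*) of all member counts. All members together held 333 and 339 CPM. Without *Cxcl12*, the ligands summed to 114 CPM with AAV-GFP and 82.5 CPM with AAV-*Wee1-AS*, a log2 ratio of -0.46. In bulk tissue, fewer cells of a type and less RNA per cell cannot be told apart.

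**Figure D1:**
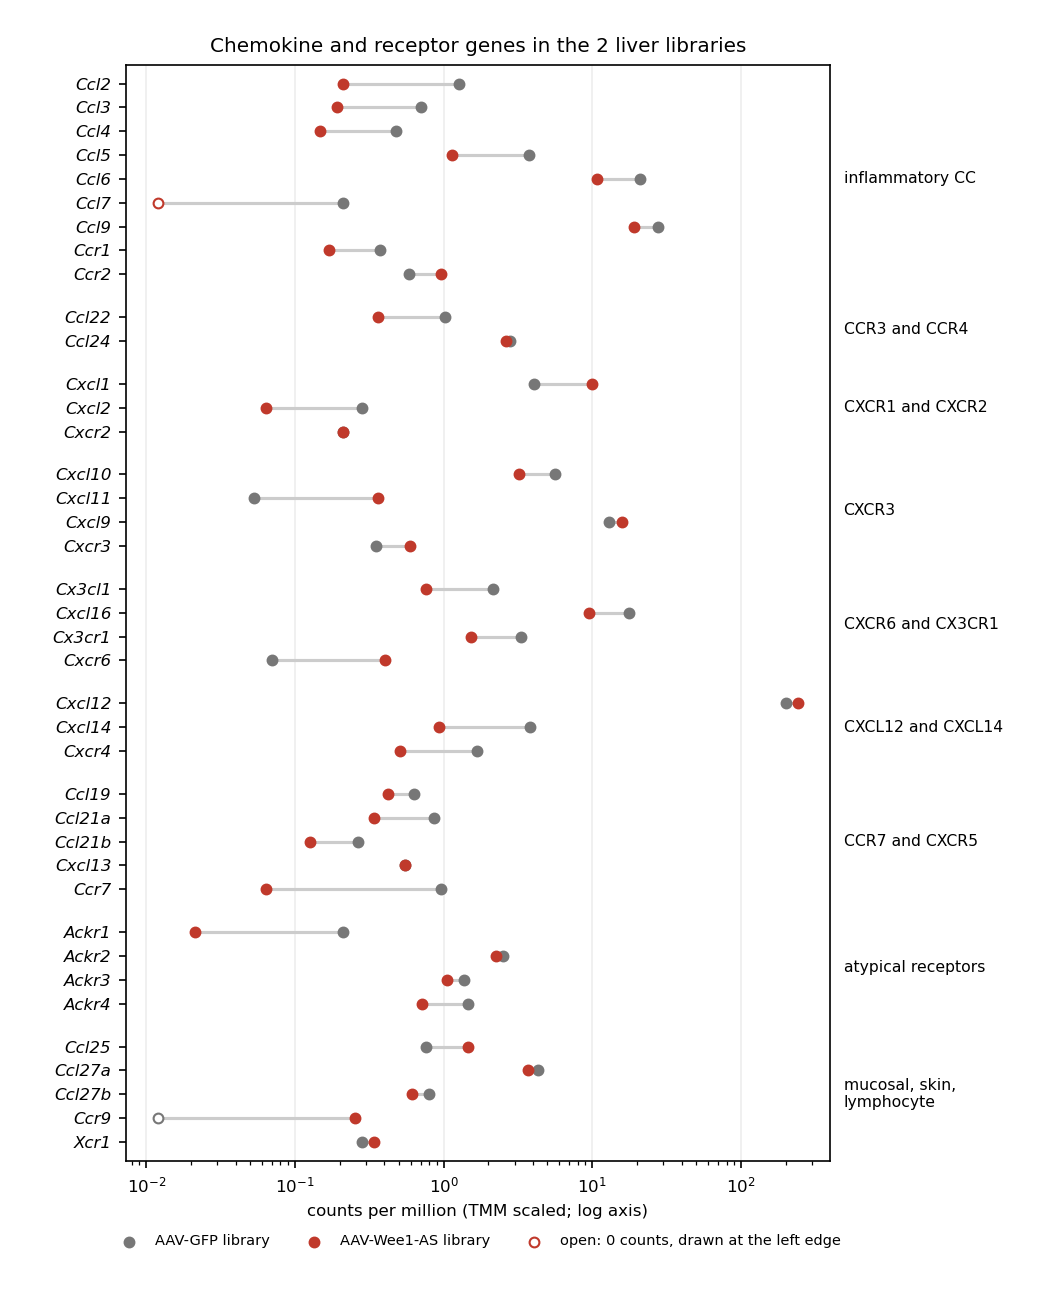
Level of 39 of the 40 members in the AAV-GFP library (grey) and the AAV-*Wee1-AS* library (red), in CPM on a log axis, grouped by receptor axis, with 1 library per group. Most red points lie to the left of their grey point, *Cxcl12* stands far to the right at 202 and 240 CPM, and open points at the left edge mark 0 counts.

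Per transcript length, in TPM (counts scaled to transcript length and to an equal sum in each library), *Cxcl12* was the most abundant member in both libraries, at 136 and 148 TPM. All members summed to 276 and 246 TPM, lower in the AAV-*Wee1-AS* library, unlike their 333 and 339 CPM. In the AAV-GFP library it was followed by *Ccl6* (25.1 TPM), *Cxcl16* (19.5 TPM), *Ccl9* (15.8 TPM) and *Ccl5* (12.1 TPM). In the AAV-*Wee1-AS* library the order after *Cxcl12* was *Cxcl1* (17.5 TPM), *Ccl6* (12.7 TPM), *Ccl9* (10.8 TPM) and *Cxcl16* (10.1 TPM). *Cxcl1* thus stood at rank 9 and rank 2 among the members, and *Ccl5* at rank 5 and rank 11. Among receptors in the AAV-GFP library, the levels of *Cxcr4* (1.57 TPM), *Cx3cr1* (1.51 TPM) and *Ackr2* (1.42 TPM) were close to each other, and in the AAV-*Wee1-AS* library *Ackr2* (1.22 TPM) and *Ackr3* (0.877 TPM) stood above *Cx3cr1* (0.682 TPM) and *Cxcr4* (0.469 TPM).

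The ratio of a gene moved with the base composition of its transcript in these libraries. Over 15108 genes the Spearman coefficient between the log2 ratio and GC content was -0.67, and over the 40 members it was -0.36. With all genes cut into 10 groups by GC content, the median log2 ratio was 1.43 in the lowest group and -0.69 in the highest. These 40 members ran from 39.1% GC (*Ccr1*) to 58.0% GC (*Ccl27a*). A second value is therefore given for most members, and wherever it changes the sign or the side of a fold limit, with the trends over GC content and transcript length across all genes taken out. On that scale 16 of the 40 members were below 0.5-fold, beside 7.74% of all genes, and 4 were above 2-fold, beside 6.98% of all genes. The median of the members was -0.76 on that scale, with -0.84 for the ligands and -0.67 for the receptors. On the 2 scales 11 of the 40 had opposite signs and 29 lay on the same side of 0.

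**Figure D2:**
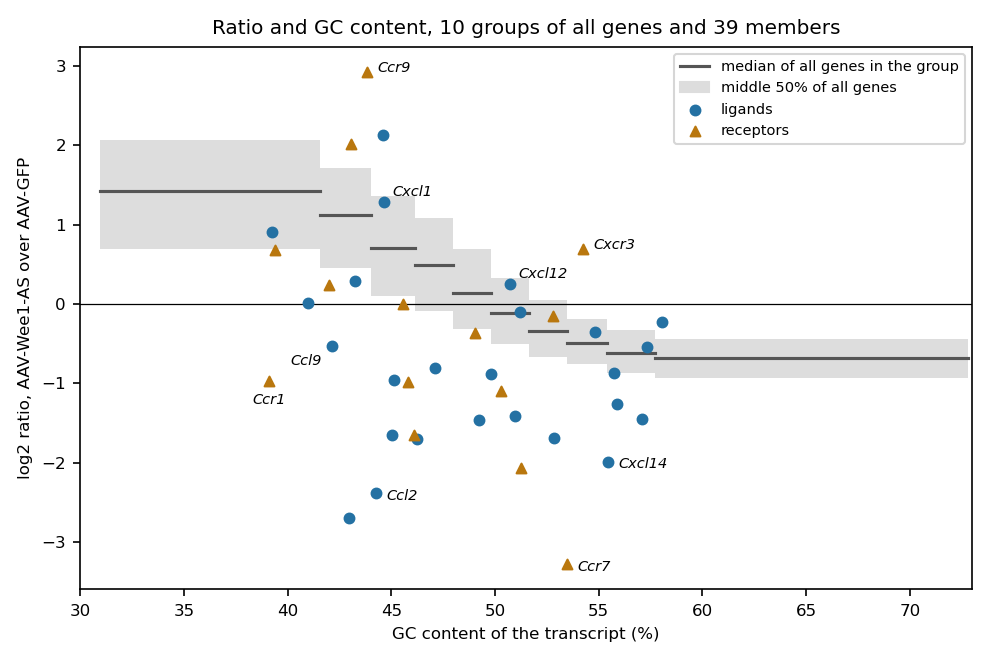
Log2 ratio against the GC content of the transcript (%) for 39 of the 40 members, ligands as circles and receptors as triangles, over 10 groups of all genes of equal size with their median (line) and middle 50% (grey). The median of all genes drops from 1.43 to -0.69 as GC content rises, and *Ccl2*, *Ccr1* and *Ccl9* lie below it.

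The promoters of 4 CXC ligands are shown because these genes lie as neighbouring pairs on chromosome 5, and the log2 ratios within each pair, given below, had opposite signs before the trends were removed. Each line gives the 250 bases before the start of the RefSeq transcript (build GRCm38.p6), 5′ to 3′ on the strand of the gene. Capitals mark matches to GGNNNTTCC, the core letters of an NF-kB type site, or GAAANNGAA, those of an interferon regulatory factor (IRF) type site, on either strand.
Cxcl1: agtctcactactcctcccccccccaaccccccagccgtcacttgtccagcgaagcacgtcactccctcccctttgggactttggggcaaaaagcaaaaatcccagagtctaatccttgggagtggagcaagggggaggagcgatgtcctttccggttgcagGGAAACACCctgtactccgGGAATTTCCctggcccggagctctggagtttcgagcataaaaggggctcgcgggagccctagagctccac
Cxcl2: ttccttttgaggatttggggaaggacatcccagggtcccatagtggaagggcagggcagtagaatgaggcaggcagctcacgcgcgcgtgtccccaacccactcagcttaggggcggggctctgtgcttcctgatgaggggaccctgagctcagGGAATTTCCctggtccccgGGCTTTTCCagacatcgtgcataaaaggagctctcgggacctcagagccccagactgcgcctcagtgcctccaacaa
Cxcl9: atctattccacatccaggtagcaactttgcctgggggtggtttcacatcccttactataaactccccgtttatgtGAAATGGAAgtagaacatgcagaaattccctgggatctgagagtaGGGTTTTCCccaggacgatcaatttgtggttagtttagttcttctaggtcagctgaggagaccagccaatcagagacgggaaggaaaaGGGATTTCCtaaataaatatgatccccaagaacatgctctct
Cxcl10: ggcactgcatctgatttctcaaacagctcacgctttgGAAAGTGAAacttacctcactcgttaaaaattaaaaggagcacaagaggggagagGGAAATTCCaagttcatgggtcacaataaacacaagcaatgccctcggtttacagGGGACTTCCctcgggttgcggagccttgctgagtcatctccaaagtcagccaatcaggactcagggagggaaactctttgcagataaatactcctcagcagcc
These lie at chr5:90890995-90891244 (*Cxcl1*, plus strand), chr5:90903649-90903898 (*Cxcl2*, plus strand), chr5:92328080-92328329 (*Cxcl9*, minus strand) and chr5:92348890-92349139 (*Cxcl10*, minus strand). Each of the 4 promoters holds 2 matches to the NF-kB letters. *Cxcl9* and *Cxcl10* each hold 1 match to the IRF letters as well, *Cxcl1* and *Cxcl2* hold none in this window, and no 2 matches overlap, with a match that reads on both strands counted once. *Cxcl1* and *Cxcl2* share the match GGAATTTCC, which lies 70 and 96 bases before their starts. The letters are common, since 15.7% of all 32851 promoters of this length hold the NF-kB letters and 7.13% the IRF letters. Promoter sequences were found for 46 of the 63 members (53 promoters), of which 16 genes held the NF-kB letters and 8 the IRF letters. A match describes the letters alone.

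The first axis is that of the inflammatory CC chemokines and receptors such as CCR1 and CCR2, which draw monocytes, macrophages and T cells. All 7 ligands with enough counts were lower in the AAV-*Wee1-AS* library, 5 of them below 0.5-fold, beside 8.71% of all genes. Of these 5, 3 (*Ccl3*, *Ccl4*, *Ccl7*) passed the minimum through the AAV-GFP library alone. *Ccl2*, the main chemokine that draws CCR2-bearing monocytes, had 72 counts with AAV-GFP and 10 with AAV-*Wee1-AS*. Its log2 ratio was -2.39 (interval -3.70 to -1.62), 6.00-fold lower, and -2.87 with the trends removed. *Ccl7*, another CCR2 ligand, had 12 counts and 0 counts, 3.33-fold lower against a floor of 3 counts per library. The counting interval of its log2 ratio lay wholly below -1.21. Both CCR2 ligands were thus lower, and *Ccl8*, a further monocyte chemokine below the minimum, had 6 and 0 counts. *Ccl12*, a mouse relative of *Ccl2*, had none.

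*Ccl3* and *Ccl4*, chemokines made by activated macrophages and lymphocytes, had 40 and 9 counts and 27 and 7 counts. Their log2 ratios were -1.70 (interval -3.12 to -0.82) and -1.46 (interval -3.13 to -0.45). *Ccl5*, a CCR1 ligand made by T cells, NK cells and macrophages, had 213 and 54 counts, a log2 ratio of -1.68 (interval -2.17 to -1.28). These 3 ligands were below 0.5-fold in the AAV-*Wee1-AS* library, although *Ccl5*, with a transcript of 52.8% GC, was at -0.92 with the trends removed. The CCR1 ligands *Ccl6* and *Ccl9*, which myeloid cells of rodents make, were far more abundant. *Ccl6* had 1188 and 511 counts, a log2 ratio of -0.95 (interval -1.11 to -0.80). *Ccl9* had 1567 and 904 counts, a log2 ratio of -0.53 (interval -0.65 to -0.41). Both have transcripts of low GC content (45.1% and 42.1%), among which most genes were higher, and with the trends removed they stood at -1.40 and -1.60.

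The receptors *Ccr1* and *Ccr2* lay on either side of 0. *Ccr1* had 21 and 8 counts, a log2 ratio of -0.98 whose interval (-2.51 to 0.10) includes 0, and passed the minimum through the AAV-GFP library alone. *Ccr2*, the receptor of inflammatory monocytes, had 33 and 45 counts, a log2 ratio of 0.68 (interval 0.03 to 1.41). Their transcripts are poor in GC, at 39.1% for *Ccr1* and 39.4% for *Ccr2*. With the trends removed, *Ccr2* was at -0.67 and *Ccr1* at -2.18, so that *Ccr2* lay on the other side of 0 and *Ccr1* was further below it.

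**Figure D3:**
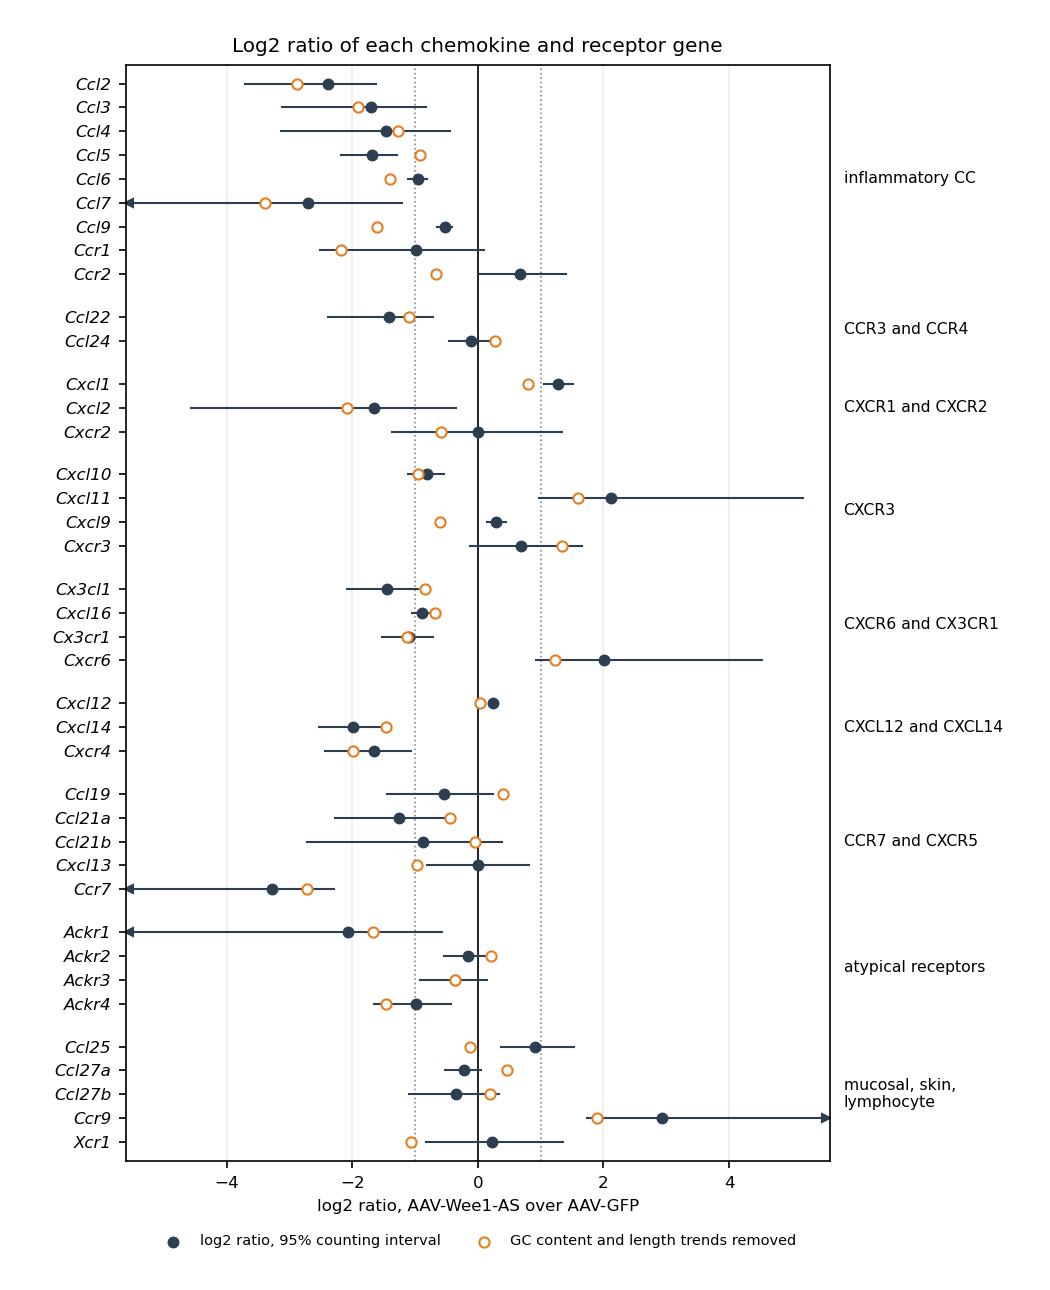
Log2 ratio (AAV-*Wee1-AS* over AAV-GFP) of 39 of the 40 members with its 95% counting interval (dark), and the value with trends over GC content and length removed (open orange), grouped by receptor axis. Dotted lines mark 0.5-fold and 2-fold, arrows mark intervals that run past the axis, and the points of *Ccl7* and *Ccr9* depend on the prior count of 2 because 1 of their libraries is at 0. Inflammatory CC ligands lie left of 0 on both scales, and *Cxcl14* lies at -1.99 and -1.45.

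The axis of CCR3 and CCR4, which draws eosinophils, Th2 cells and regulatory T cells, had 2 of its 7 genes above the minimum. *Ccl22*, a CCR4 ligand made by macrophages and dendritic cells, had 58 and 17 counts, a log2 ratio of -1.41 (interval -2.38 to -0.71). *Ccl24*, a CCR3 ligand that macrophages make, had 159 and 123 counts, a log2 ratio of -0.11 (interval -0.46 to 0.24) and 0.27 with the trends removed, so the counting error includes no difference. Below the minimum were *Ccl11* (7 and 0 counts), *Ccl17* (3 and 0 counts) and *Ccr3* (6 and 0 counts), and *Ccl26* and *Ccr4* had none.

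On the neutrophil axis of CXCR1 and CXCR2, the neighbouring ligands *Cxcl1* and *Cxcl2* went in opposite directions. *Cxcl1*, which stressed hepatocytes, endothelial and stellate cells release, had 230 and 468 counts. Its log2 ratio was 1.28 (interval 1.06 to 1.52), 2.44-fold higher, and 0.81 with the trends removed. *Cxcl2*, which macrophages release early after a stimulus, had 16 and 3 counts, a ratio of 0.225 with a log2 ratio of -1.65 (interval -4.57 to -0.35). The intervals of the neighbours do not overlap, although *Cxcl2* passed the minimum through the AAV-GFP library alone. It was at -2.09 with the trends removed. The receptor *Cxcr2*, a neutrophil gene, had 12 and 10 counts (interval of the log2 ratio -1.37 to 1.34, and -0.58 with the trends removed), and *Cxcr1* had 2 and 5. The other ligands of the cluster, *Cxcl3*, *Cxcl5* and *Cxcl15*, were at 0 in both libraries.

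On the CXCR3 axis, through which interferon-induced ligands draw T and NK cells, the 3 neighbouring ligands differed as measured. *Cxcl9* had 728 and 744 counts, a log2 ratio of 0.29 (interval 0.15 to 0.44). *Cxcl10*, another ligand induced by interferon, had 319 and 151 counts, a log2 ratio of -0.81 (interval -1.10 to -0.53). *Cxcl11* had 3 and 17 counts, a ratio of 6.80 with a log2 ratio of 2.12 (interval 0.98 to 5.18). It passed the minimum through the AAV-*Wee1-AS* library alone, so its higher value is in part set by the minimum. All *Cxcl11* counts lie on a transcript that the table lists as non-coding, and the gene is known to lack an intact reading frame in C57BL/6 mice. With the trends removed, *Cxcl9* was at -0.60, *Cxcl10* at -0.96 and *Cxcl11* at 1.59. The sign of *Cxcl9* therefore differs between the scales. The receptor *Cxcr3* had 20 and 28 counts, a log2 ratio of 0.69 (interval -0.13 to 1.65), and 1.34 with the trends removed.

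Of the membrane-bound chemokines and their receptors, both ligands were lower. *Cxcl16*, the CXCR6 ligand and scavenger receptor of macrophages and endothelium, had 994 and 449 counts, a log2 ratio of -0.88 (interval -1.05 to -0.72). *Cx3cl1*, or fractalkine, had 122 and 36 counts, a log2 ratio of -1.45 (interval -2.08 to -0.95). *Cx3cr1*, the fractalkine receptor of patrolling monocytes and macrophages, had 187 and 72 counts, a log2 ratio of -1.09 (interval -1.53 to -0.71) and -1.12 with the trends removed. Fractalkine and its receptor were thus below 0.5-fold together, although *Cx3cl1* was at -0.84 with the trends removed. *Cxcr6*, a receptor of liver-resident T and NKT cells, had 4 and 19 counts, a log2 ratio of 2.02 (interval 0.92 to 4.53). It passed the minimum through the AAV-*Wee1-AS* library alone, so its higher value is in part set by the minimum. It was at 1.22 with the trends removed.

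*Cxcl12*, the homeostatic chemokine of stromal and endothelial cells, had 11445 and 11320 counts. Its log2 ratio was 0.25 (interval 0.21 to 0.29), and 0.03 with the trends removed. Its receptor *Cxcr4*, found on most leukocytes, had 95 and 24 counts, a log2 ratio of -1.65 (interval -2.43 to -1.06) and -1.99 with the trends removed. The ligand was thus nearly level while the signalling receptor was 3.30-fold lower, and the other receptor of CXCL12, the atypical *Ackr3* of endothelial cells, had 78 and 50 counts, a log2 ratio of -0.37 (interval -0.92 to 0.15). *Cxcl14*, a chemokine of epithelial cells, had 216 and 44 counts, a log2 ratio of -1.99 (interval -2.53 to -1.56). The estimates placed its counts on NM_019568 in the AAV-GFP library and on the predicted XM_011244545 in the AAV-*Wee1-AS* library.

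The 3 transcripts of *Cxcl12* had different ratios. Variant 1 (1878 bases) had 4486 and 3613 counts, variant 2 (3173 bases) 6222 and 6182, and variant 3 (5670 bases) 737 and 1525. The longest variant held 6.44% of the gene's counts with AAV-GFP and 13.5% with AAV-*Wee1-AS*. Ratios also moved with transcript length across all genes (Spearman coefficient 0.37), and its part in this shift was not tested. Of *Cxcl16*, a 1563-base transcript with 145 counts and a 1493-base transcript with 603 counts in the AAV-GFP library were at 0 and 216 in the other, while the 1692-base transcript was nearly level at 240 and 231. Of *Cxcr4*, the 1808-base transcript had 62 and 0 counts and the 1814-base transcript 33 and 24. Counts of overlapping transcripts are shared out by the estimate, so the split between them is less certain than the sum.

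**Figure D4:**
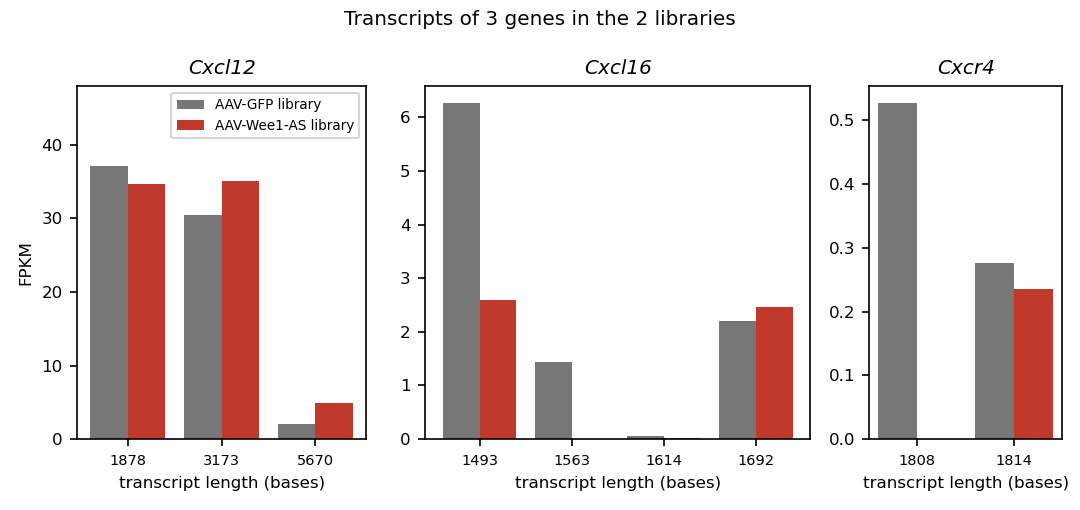
Level in FPKM (fragments scaled to transcript length and library size, bars from 0) of each transcript of *Cxcl12*, *Cxcl16* and *Cxcr4* with at least 1 count, ordered by length in bases, in the AAV-GFP library (grey) and the AAV-*Wee1-AS* library (red). The 5670-base transcript of *Cxcl12* goes from 2.02 to 4.85 FPKM, and the 1808-base transcript of *Cxcr4* is at 0 in the AAV-*Wee1-AS* library.

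On the lymphoid axes of CCR7 and CXCR5, which guide dendritic cells, naive T cells and B cells, the receptor of dendritic cells and naive T cells had the lowest log2 ratio of the 40 members as measured with a prior count of 2. That receptor passed the minimum through the AAV-GFP library alone, so its place is in part set by the minimum. *Ccr7* had 54 and 3 counts, a ratio of 0.0667 with a log2 ratio of -3.28 (interval -6.23 to -2.28), and -2.72 with the trends removed. On that scale *Ccl7* (-3.39) and *Ccl2* (-2.87) were lower, as was *Ccl7* with a prior count of 0.5 (-4.52 against -3.72 for *Ccr7*). Its ligands had few counts. *Ccl19* had 36 and 20 counts (log2 ratio -0.54, interval -1.45 to 0.24), *Ccl21a* 49 and 16 (log2 ratio -1.26, interval -2.26 to -0.51) and *Ccl21b* 15 and 6 (log2 ratio -0.87, interval -2.71 to 0.39). With the trends removed, *Ccl21a* was at -0.43 and *Ccl19* at 0.40, so only *Ccr7* of these 4 was below 0.5-fold on both scales. *Ccl21a* and *Ccl21b*, as well as *Ccl19* and its pseudogenes *Ccl19-ps1* (8 and 6 counts) and *Ccl19-ps2* (3 and 2 counts), are near-identical copies on chromosome 4, and the split of reads between them is uncertain. *Cxcl13*, the B cell chemokine, had 31 and 26 counts (log2 ratio 0.01, interval -0.80 to 0.81, and -0.96 with the trends removed), and its receptor *Cxcr5* had 6 and 5.

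The 4 atypical receptors all had fewer counts in the AAV-*Wee1-AS* library. *Ackr1*, a chemokine carrier of venules and red cell precursors, had 12 and 1 counts, a log2 ratio of -2.07 (interval -8.74 to -0.56). It passed the minimum through the AAV-GFP library alone, so its lower value is in part set by the minimum. *Ackr4*, a scavenger of CCR7 and CCR9 ligands, had 83 and 34 counts, a log2 ratio of -0.99 (interval -1.64 to -0.43) and -1.45 with the trends removed. *Ackr2*, a scavenger of inflammatory CC chemokines, had 142 and 106 counts, a log2 ratio of -0.16 (interval -0.54 to 0.21) and 0.20 with the trends removed. The estimates placed its counts on NM_001276719 and NM_021609 in the AAV-GFP library and on the predicted XM_006512203 in the AAV-*Wee1-AS* library. The intervals of *Ackr1* and *Ackr4* lie below 0, and those of *Ackr2* and *Ackr3* include it.

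Of the 12 genes of the mucosal, skin and lymphocyte axes, 5 had enough counts. *Ccl25*, the ligand of CCR9, had 43 and 69 counts, a log2 ratio of 0.91 (interval 0.38 to 1.53) and -0.13 with the trends removed. *Ccr9*, a receptor of gut-homing T cells and plasmacytoid dendritic cells, had 0 and 12 counts, 4.80-fold higher against a floor of 3 counts. The counting interval of its log2 ratio lay wholly above 1.74. *Xcr1*, the receptor of cross-presenting dendritic cells, had 16 counts in each library (log2 ratio 0.23, interval -0.83 to 1.36), and was at -1.07, below 0.5-fold, with the trends removed. *Ccr9* passed the minimum through the AAV-*Wee1-AS* library alone. The skin chemokine *Ccl27a* had 246 and 175 counts (log2 ratio -0.23, interval -0.52 to 0.06), and its copy *Ccl27b* 45 and 29 (log2 ratio -0.35, interval -1.10 to 0.33). Both were on the other side of 0 with the trends removed, at 0.47 and 0.20. *Ccl27a* overlaps the interleukin 11 receptor gene and has a near-identical copy, so its reads are uncertain too. Below the minimum were *Ccr6* (0 and 8 counts), *Xcl1* (0 and 2 counts) and *Ccr1l1* (0 and 2 counts), and *Ccl1*, *Ccl20*, *Ccl28*, *Ccr8*, *Ccr10* and *Cxcl17* had no count.

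Many members lie in clusters on the genome. On chromosome 11, *Ccl2*, *Ccl7*, *Ccl11*, *Ccl12*, *Ccl8* and *Ccl1* span chr11:82035577-82179812, and the 4 with counts were all lower in the AAV-*Wee1-AS* library, 97 and 10 counts in sum. Some distance on, *Ccl5*, *Ccl9*, *Ccl6*, *Ccl3* and *Ccl4* span chr11:83525778-83664683, and all 5 were lower, 3035 and 1485 counts in sum. With the trends removed these 5 were still lower, 4 of them below 0.5-fold, beside 7.74% of all genes. Over all genes, 8010 of 15857 were lower as measured and 7554 of 15108 with the trends removed. On chromosome 8, *Ccl22*, *Cx3cl1* and *Ccl17* (chr8:94745684-94812038) were all lower as well, with 183 and 53 counts in sum. On chromosome 4, *Ccl19*, *Ccl21a*, *Ccl21b*, *Ccl27a*, *Ccl27b* and the 2 pseudogenes were all lower, but with the trends removed 3 of the 5 with enough counts were above 0 (*Ccl19*, *Ccl27a*, *Ccl27b*). The neighbours on chromosome 5 were mixed, as described above. Among the clustered receptors of chromosome 9, *Ccr1* and *Ccr3* were lower while *Ccr2*, *Ccr9*, *Cxcr6*, *Xcr1* and *Ccr1l1* were higher. The counting intervals of *Ccr1*, *Ccr3*, *Xcr1* and *Ccr1l1* include a ratio of 1. So do those of *Ccl8*, *Ccl17* and the chromosome 4 genes named above other than *Ccl21a*. With the trends removed, *Ccr2* and *Xcr1* were at -0.67 and -1.07, while *Ccr9* and *Cxcr6* stayed above 0 and *Ccr1* below it.

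The depth of the counts sets the counting error of each value, and not the spread between mice. At least 100 counts in at least 1 library were held by 15 members. Of these, 11 were lower in the AAV-*Wee1-AS* library, beside 51.3% of the 11565 genes of that depth. Intervals lay wholly below a ratio of 1 for 8 and wholly above it for 4, beside 44.9% and 43.2% of those genes. Below 0.5-fold were 4 (*Ccl5*, *Cx3cl1*, *Cx3cr1*, *Cxcl14*), beside 5.81%, and above 2-fold were 2, *Cxcl1* among them, beside 21.8%. The median of the 15 was -0.53, and -0.69 with the trends removed. The values of 6 members rest on a library with 3 counts or fewer (*Ackr1*, *Ccl7*, *Ccr7*, *Ccr9*, *Cxcl2*, *Cxcl11*). Below 0.5-fold on both scales were 11 members, *Ccl2*, *Ccl3*, *Ccl4*, *Ccl7*, *Ccl22*, *Cxcl2*, *Cxcl14*, *Ccr7*, *Cxcr4*, *Cx3cr1* and *Ackr1*, beside 4.26% of the 15108 genes with a value on both. Of the 11, 6 passed the minimum through the AAV-GFP library alone (*Ackr1*, *Ccl3*, *Ccl4*, *Ccl7*, *Ccr7*, *Cxcl2*), so their place in this set is in part fixed by the minimum. Above 2-fold on both scales were 3, *Cxcl11*, *Cxcr6* and *Ccr9*, beside 5.79% of those genes. These 3 each had fewer than 20 counts in the AAV-*Wee1-AS* library and are the members that passed the minimum through that library alone.

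Most of the general leukocyte markers, and most of those of monocytes and recruited macrophages, were lower. Dendritic cell markers, given below, were mostly higher. Of 8 general leukocyte markers 6 were below 0.5-fold and *Ptprc* was above 2-fold, beside 8.71% and 22.2% of all genes. Their summed level was 179 and 88.5 CPM. The median log2 ratio of the list was -1.11, and with the trends removed it was -0.46 with none of the 8 past either fold limit. On that scale 7.74% of all genes were below 0.5-fold and 6.98% above 2-fold. Of 9 markers of monocytes and recruited macrophages 6 were below 0.5-fold, with a median of -1.28 and sums of 101 and 69.0 CPM. With the trends removed, the median was -1.60 and 5 were below 0.5-fold. The lowest ratio was that of *Gpnmb*, a marker of lipid-laden macrophages, with 831 and 62 counts. *Lyz2*, the most abundant of the list, had 2492 and 2217 counts (log2 ratio 0.09) and *Itgam* 97 and 99 (log2 ratio 0.29). The lower inflammatory CC ligands thus stood beside 7 of 9 lower markers of these cells, where 8010 of all 15857 genes were lower. The part of these cells in the chemokine values was not tested.

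Markers of Kupffer cells and of blood cells went both ways. Over all genes, 8.71% were below 0.5-fold and 22.2% above 2-fold, and 7.74% and 6.98% with the trends removed. Kupffer cell markers had sums of 706 and 470 CPM, with 2 of 8 below 0.5-fold (*C1qb*, *C1qc*) and 3 above 2-fold (*Vsig4*, *Timd4*, *Marco*), and *Clec4f*, their defining marker, at 7220 and 5418 counts. With the trends removed, their median went from -0.45 to 0.13, none was below 0.5-fold and *Marco* alone was above 2-fold. Neutrophil markers summed to 7.71 and 4.86 CPM, with 2 of the 6 kept below 0.5-fold on both scales (*S100a9*, *Retnlg*), while *Ly6g* was at 0 in both libraries and *Mmp8* at 0 in the AAV-GFP library. On the scale without the trends, 1 of the 6 was above 2-fold (*Camp*, with 7 and 12 counts). Erythroid markers summed to 1294 and 731 CPM, with none of 5 past a limit and a median of -0.89, and 0.05 with the trends removed. T and NK cell markers had sums of 3.62 and 2.63 CPM, with 2 of 8 below 0.5-fold (*Cd8a*, *Nkg7*), of which *Cd8a* was so with the trends removed. B cell markers had sums of 2.85 and 2.61 CPM, with 1 of 4 above 2-fold on both scales (*Ms4a1*, at 0 in the AAV-GFP library).

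Dendritic cell markers had sums of 3.98 and 6.94 CPM, beside the lower *Ccr7*. Of the 6, 3 were above 2-fold (*Clec9a*, *Siglech*, *Itgae*), beside 22.2% of all genes. *Zbtb46* was at 0.90, and *Flt3* (-0.25) and *Cd209a* (-0.46) were below 0. *Itgae* alone was above 2-fold and *Cd209a* below 0.5-fold (-1.02) with the trends removed, beside 6.98% and 7.74% of all genes. Sinusoidal endothelial markers (238 and 232 CPM, none of 6 past either limit) and stellate cell markers (245 and 246 CPM, 1 of 6 past each limit and none with the trends removed) had nearly equal sums. Cholangiocyte markers (4.58 and 5.37 CPM) had none of 4 past a limit. Hepatocyte markers summed to 71609 and 88231 CPM, with *Cps1* above 2-fold, and none was past a limit with the trends removed.

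**Figure D5:**
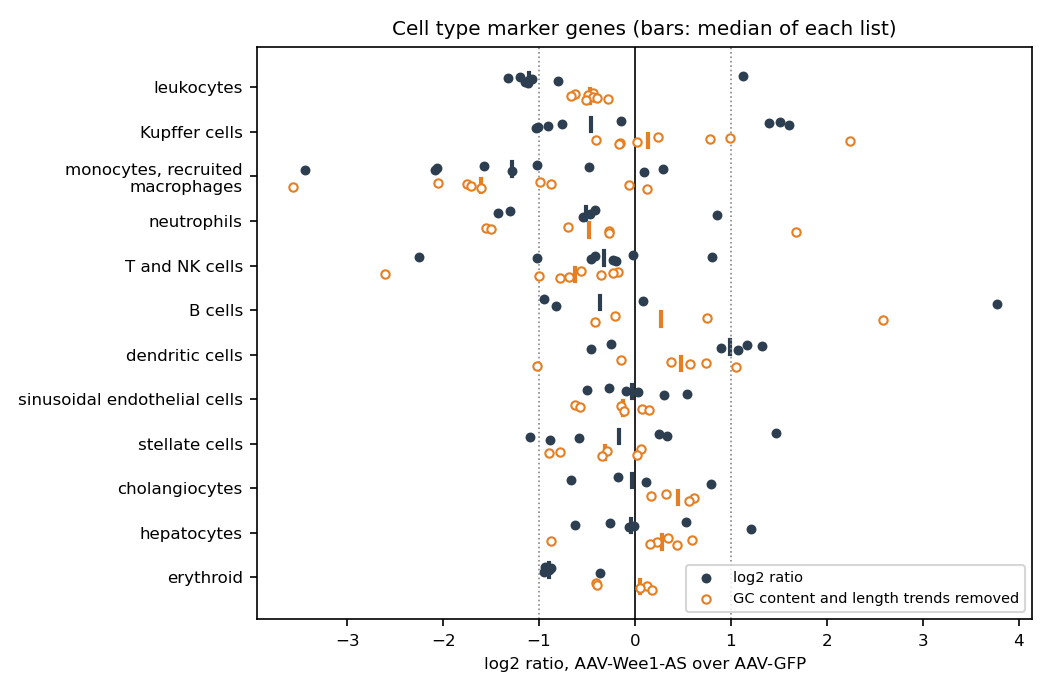
Log2 ratio (AAV-*Wee1-AS* over AAV-GFP) of marker genes of 12 cell types, as measured (dark) and with trends over GC content and length removed (open orange), with bars at the median of each list. Markers of monocytes and recruited macrophages have medians of -1.28 and -1.60, while general leukocyte markers move from -1.11 to -0.46.

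Outside the name rule, 44 genes of chemokine receptor signalling and its control were followed, and 43 had enough counts. Of these, 5 were above 2-fold, beside 22.2% of all genes, and 4 below 0.5-fold, beside 8.71%. On the fold limits the list thus stood near or under the background. Of the 43, 30 were lower, where 8010 of all 15857 genes were. Intervals lay wholly below a ratio of 1 for 24 and wholly above it for 10. Over all genes the shares of such intervals were 38.0% and 39.1%. The median of the list was -0.47, and -0.20 with the trends removed. On that scale 1 was above 2-fold (*Gnai3*), beside 6.98% of all genes. Below 0.5-fold were 4 (*Elmo1*, *Rgs1*, *Ppbp*, *Gpr35*), beside 7.74%. The G protein subunit *Gnai3* had 672 and 2894 counts (log2 ratio 2.37) and its relative *Gnai2*, of higher GC content (56.7% against 41.7%), 9759 and 4720 (log2 ratio -0.78). *Gnai3* was at 1.22 and *Gnai2* at -0.06 with the trends removed. The sheddases *Adam10* (322 and 979 counts) and *Adam17* (277 and 764 counts), which release *Cx3cl1* and *Cxcl16* from the membrane, and the chemokine-cleaving protease *Dpp4* (2089 and 5052 counts) were above 2-fold, and none of these 3 was with the trends removed. *Dock2*, the Rac activator of leukocyte migration, was also above 2-fold (163 and 289 counts, log2 ratio 1.08), and was at 0.56 with the trends removed. Among those below 0.5-fold were *Rgs16* (19562 and 7082 counts), a brake on G protein signals, *Cd74* (12055 and 4030 counts), a receptor of MIF, and *Elmo1* (191 and 74 counts), the partner of DOCK proteins. *Rgs16* was at -0.68, *Cd74* at -0.51 and *Elmo1* at -2.04 with the trends removed. The platelet chemokines *Pf4* (62 and 28 counts) and *Ppbp* (21 and 11 counts) had log2 ratios of -0.84 and -0.59.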

How the data were processed

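Poly-A liver RNA was sequenced in 2 stranded paired-end libraries, 1 per group. The submitters' processing notes name Trimmomatic 0.38, HISAT2 2.1.0, SAMtools 1.9, StringTie 2.1.3b and build mm10. The authors deposited estimated counts per transcript, not normalized, and 98.9% and 99.0% of them equal FPKM times length and a constant, rounded up with a tolerance of 0.001 counts. The FPKM and TPM values were also deposited by the authors. The strand setting of the counting is not given in the sources used here. Every sample column of the table was used (0 left out).

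Counts were summed per gene symbol. TMM scaling (edgeR 4.0.16, R 4.3.3) and a prior count of 2 gave log2 ratios, for genes with 10 or more counts in either library. Exact (Clopper-Pearson) 95% intervals came from the 2 counts; reads without molecular identifiers are not independent molecules, so they cover counting error only. Folds against a library at 0 used a floor of 3 counts. GC content of the longest GENCODE transcript (95.3% of genes) and length were fitted by lowess in turn (span 0.3, 5 cycles). Promoters came from RefSeq. Lowess was from statsmodels 0.14.6, intervals from scipy 1.17.1 and plots from matplotlib 3.10.9 (Python 3.11.15, pandas 2.3.3, numpy 2.4.6), and the steps were tested on simulated data.

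Members with enough counts are named, ordered by role. The values of 1 member and 1 gene of the pathway list are not reported here, and both stay in the counts and medians. The members, the marker lists and the pathway list were chosen with earlier results of these data known. The design named *Ccr1l1* in the pathway list too, and it is counted here as a member only, and 3 older symbols of that list have no row in the table. Alternatives were scaling by DESeq2 1.42.0, by library totals or by the upper quartile, a prior count of 0.5, other count minimums, FPKM and TPM with a pseudocount of 1, removal of trends, and the most abundant transcript. No explanation was tested.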

Additional observations from a re-analysis of the deposited data

How the results depend on the processing

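With 1 library per group, no alternative can show how mice of a group differ. Under the 13 alternatives the medians ran from -1.04 to -0.35 for ligands and from -0.99 to 0 for receptors. The main values were -0.87 and -0.16. All stayed within the 95% order-statistic intervals over genes. That of the receptors (-1.09 to 0.69) is wide, so staying within it is a weak check. The 14 members below 0.5-fold became 8 with at least 10 counts in both libraries, 8 with 50 or more in either library, 2 in FPKM and 3 in TPM (pseudocount 1). Over all genes the counts were 1381 of 15857 in the main setting. They became 884 of 14412, 825 of 12815, 307 of 15857 and 438 of 15857 in the same order. The members below 0.5-fold became 20 under upper-quartile scaling and 18 of 63 without a count minimum. They became 17 each with library totals, a prior count of 0.5 or the most abundant transcript. Over all genes these were 2232 of 15857, 2126 of 45777, 1547 of 15857, 1463 of 15857 and 2075 of 15782. With the most abundant transcript the 17 include *Ackr2* (log2 ratio -5.89), whose counts were placed on different transcripts in the 2 libraries. The 5 above 2-fold became 8 of 63 without a count minimum, 2 with each of the stricter minimums, and 1 each in FPKM and TPM. Over all genes these were 4768 of 45777, 3008 of 14412, 2838 of 12815, 1029 of 15857 and 1608 of 15857, beside 3527 of 15857 in the main setting. The stricter minimums leave 29 and 22 members, and a pseudocount of 1 shrinks ratios at low levels. Under upper-quartile scaling the median of all genes was -0.22 in place of -0.02, and members shifted with it. Without FPKM and TPM, 14 of the 19 members past a limit kept their side of it wherever they could be computed, and *Cxcl14* did so with them too. The other 5 (*Ccl5*, *Ccl21a*, *Cx3cl1*, *Cxcl1* among them) lay within the limits with the trends over GC content and length removed. No member past a limit changed sign. *Cxcl13* and *Cxcr2*, near 0, changed sign under the 3 other scalings of the counts, and 4 members (*Ccl24*, *Cxcl12*, *Cxcr2*, *Xcr1*) with the length trend removed. Counts recomputed before rounding up, chosen after seeing the data, gave 15 below and 5 above, beside 1367 and 3492 of all 15629 genes. Low counts limit most receptors. No paired analysis was possible because each group has 1 library.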
